A study of Caenorhabditis elegans with 2 samples.

Results

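The genes described here are 8 chaperone genes and chaperone regulators of Caenorhabditis elegans, out of 19973 protein-coding genes of the nuclear chromosomes. They comprise the cytosolic chaperone genes hsp-1 and hsp-110, the mitochondrial chaperone genes hsp-6 and hsp-60, the heat shock regulator gene hsf-1, and atfs-1, dve-1 and ubl-5, which act in the mitochondrial unfolded protein response. The set was chosen by the signal of peaks near these genes, with earlier results in view, so the positions and strengths of its promoter peaks are given as a description. Tagged NHR-90, a nuclear hormone receptor, was recovered with its DNA from whole hermaphrodites of strain OP484 and sequenced, an assay known as ChIP-seq. These transgenic animals carry NHR-90 with a GFP-FLAG tag at its C-terminus, and were collected as young adults, 64 h after starved first-stage larvae had been synchronized. The sample descriptions name an antibody against GFP, while a separate antibody field names nhr-90. There were 2 biological replicates of this 1 group, and a control experiment that the labels point to is not analysed here. Whole animals were used, so the tissue in which a site was occupied cannot be told from these data.

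Chaperones bind unfolded proteins and help them to fold. HSP70 proteins such as HSP-1 in the cytosol and HSP-6 in mitochondria work in cycles of ATP hydrolysis, HSP110 proteins act as their nucleotide exchange factors, and HSP60 forms a barrel in mitochondria in which proteins fold together with a small HSP10 lid. In the cytosol, heat shock factor HSF-1 raises chaperone transcription by binding heat shock elements, which are inverted repeats of a short unit. When mitochondrial import or folding fails, the bZIP factor ATFS-1 enters the nucleus and acts with the homeobox protein DVE-1 and its partner UBL-5 to raise hsp-6 and hsp-60, the usual reporters of that response.

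The strongest NHR-90-eGFP peaks of the set lay at hsp-60 and hsp-1. A gene was given a peak when the summit, the highest point of the peak, fell from 1000 bp before to 500 bp after one of its annotated starts. The stringent list of 1441 peaks was cut by irreproducible discovery rate (IDR), which scores how alike the replicates rank their peaks. It held such a peak for hsp-60, hsp-1 and ubl-5. That is 3 of 8 genes, beside 3.62% of all protein-coding genes (723 of 19973, exact 95% interval 3.37 to 3.89%, counting error only). The larger pooled list, called from both replicates together, held a promoter peak for 8 of 8 genes, beside 42% of all genes. The set was named from these peaks, so nothing is read from either difference. The 1441 IDR peaks are the strongest 1441 of 30000 pooled peaks, and the low end of the pooled list may be background. Ranks below count from the strongest peak of each list, by the authors' peak signal, among 30000 peaks in the pooled list and in replicate 1 and 26622 in replicate 2.

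The 2 strongest promoter peaks, and the strongest promoter peaks of hsp-6 and atfs-1, are shown as the 100 bp around the pooled summit, since the summit marks where the recovered DNA was most abundant. The sequences are RefSeq's WBcel235 assembly, whose coordinates are those of ce11, written 5′ to 3′ on the strand of the gene. Capitals mark matches to the searched motifs, which for hsp-1 are a GA repeat and a pair of heat shock element units, and for the others the letters CCAAT or their complement.
hsp-60, chrIII:1619072-1619171, plus strand: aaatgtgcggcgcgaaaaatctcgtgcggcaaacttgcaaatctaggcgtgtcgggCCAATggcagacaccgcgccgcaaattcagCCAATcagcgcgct
hsp-1, chrIV:17278556-17278655, plus strand: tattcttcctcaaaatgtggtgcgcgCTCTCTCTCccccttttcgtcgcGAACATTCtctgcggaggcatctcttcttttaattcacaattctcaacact
hsp-6, chrV:4827151-4827250, minus strand: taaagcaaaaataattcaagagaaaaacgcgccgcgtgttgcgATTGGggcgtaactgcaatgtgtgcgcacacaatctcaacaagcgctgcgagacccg
atfs-1, chrV:14193532-14193631, plus strand: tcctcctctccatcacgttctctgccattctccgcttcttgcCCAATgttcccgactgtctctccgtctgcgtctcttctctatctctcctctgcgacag

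hsp-60 (WBGene00002025, chromosome III, 1619742 to 1625803, plus strand) encodes the mitochondrial chaperonin and had the strongest promoter peak of the set. On ce11 the pooled peak spanned 1619075 to 1619225, was 151 bp wide and ranked 253 with a signal of 220.0. Its replicate 1 counterpart ranked 402 (signal 108) and its replicate 2 counterpart 146 (signal 117). Its summit was 620 bp upstream of the first start in the pooled list and in replicate 1, and 609 bp upstream in replicate 2. The summits of the 3 lists thus fell within 11 bp, and both replicates placed the peak in the same intergenic stretch. Taking the strongest promoter peak for each gene, hsp-60 ranked 120 among 19973 genes in the pooled list, 191 in replicate 1 and 69 in replicate 2.

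The hsp-60 peak lies in a divergent promoter that it shares with another chaperone gene. Y22D7AL.10 (WBGene00021248, chromosome III, 1617151 to 1618929, minus strand), which RefSeq describes as the mitochondrial 10 kDa heat shock protein, starts on the other side of the same 812 bp interval. The pooled summit was 193 bp upstream of the Y22D7AL.10 start, nearer than to that of hsp-60. The peak counts for hsp-60 only where a summit may belong to both genes: with each summit given to its nearest start, or with a window of 500 bp upstream to the start, hsp-60 had no IDR promoter peak. Both genes encode parts of the same chaperonin machine, and the data do not separate a site of one from a site of the other. Apart from Y22D7AL.10, which has the same peak, the genes nearest to hsp-60 in log2 replicate signals among 718 genes were F42F12.14 and rpa-2. F42F12.14 had a signal of 109.6 in replicate 1 and 122 in replicate 2, a distance of 0.0668, and rpa-2, a subunit of the single-stranded DNA-binding replication protein A, had 109.8 and 109, a distance of 0.109. This likeness is over 2 samples only.

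hsp-1 (WBGene00002005, chromosome IV, 17278959 to 17281330, plus strand), the constitutive HSP70 of the cytosol, had a promoter peak of its own. The pooled peak spanned 17278492 to 17278717, was 226 bp wide and ranked 502 with a signal of 167. Its ranks were 566 (signal 93.1) in replicate 1 and 462 (signal 76.7) in replicate 2. Its summits were 353, 369 and 342 bp upstream of the start in the pooled, replicate 1 and replicate 2 lists, a span of 27 bp. No other protein-coding gene had its promoter window over the summit, and the nearest gene upstream, clec-196, ended 858 bp from it on the same strand. The IDR peak stayed with hsp-1 under each window, threshold and replicate tried.

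**Figure D1:**
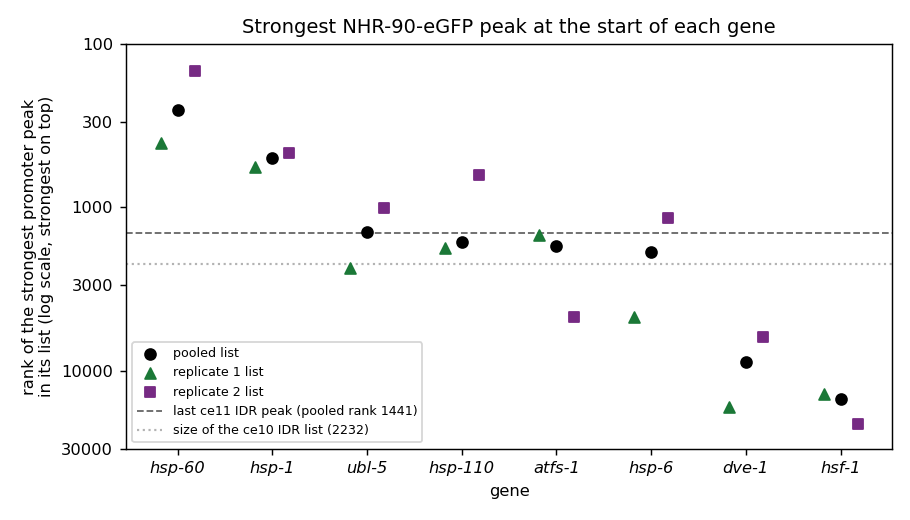
Rank of the strongest promoter peak of each of the 8 genes (log scale, strongest on top) in the pooled list (circles), replicate 1 (triangles) and replicate 2 (squares). The dashed line marks rank 1441, the last IDR peak on ce11, and the dotted line 2232, the size of the ce10 IDR list; hsp-60 and hsp-1 lie above both lines in all 3 lists, and hsf-1 and dve-1 below both in all 3.

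The other chaperone genes lay just outside the IDR list. hsp-110 (WBGene00016250, chromosome III, 8443910 to 8446909, minus strand), the HSP110 partner of HSP-1, had its strongest pooled promoter peak at rank 1629 with a signal of 92.5. Its ranks were 1769 (signal 53.2) in replicate 1 and 633 (signal 67.4) in replicate 2. These were not at one place: the summit was 50 bp downstream of the start in the pooled list, 415 bp downstream in replicate 1 and 115 bp downstream in replicate 2, all in a coding exon. The pooled list held 3 peaks in the window, of which the others were 414 bp downstream (rank 1990, signal 81.9) and 161 bp upstream (rank 3344, signal 60.6). The upstream peak was also seen 173 bp upstream in replicate 1 (rank 6121) and 145 bp upstream in replicate 2 (rank 2239). The start of hsp-110 is 443 bp from that of the divergent rpn-3, a proteasome subunit gene, whose window also held the strongest pooled summit, 494 bp from its start.

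hsp-6 (WBGene00002010, chromosome V, 4824124 to 4826760, minus strand), the mitochondrial HSP70, had its strongest pooled promoter peak at rank 1880 with a signal of 84.9. Replicate 1 put it at rank 4664 (signal 31.6) and replicate 2 at rank 1155 (signal 50.3). The summits were 441, 419 and 394 bp upstream in the pooled, replicate 1 and replicate 2 lists, so the place was alike within 47 bp while the rank was not. This promoter is divergent too: C37H5.5, which RefSeq names as a homolog of a nucleolar complex protein, starts 599 bp from hsp-6, and the pooled summit was 159 bp upstream of it.

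ubl-5 (WBGene00006726, chromosome I, 5607826 to 5608841, minus strand), which encodes a small ubiquitin-like partner of DVE-1, was the IDR gene nearest to the limit. Its pooled peak ranked 1424 with a signal of 99.5, where the weakest IDR peak had 98.9. The first gene of the set below that limit was hsp-110, with 92.5. The peak of ubl-5 was at rank 2333 (signal 45.7) in replicate 1 and 1011 (signal 53.5) in replicate 2. Its summits were 230, 191 and 228 bp upstream in the pooled, replicate 1 and replicate 2 lists. The upstream gene vha-10, described by RefSeq as a putative proton pump subunit, lies on the same strand and ends 270 bp from the pooled summit, so the summit lies between a 3′ end and a start.

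atfs-1 (WBGene00013878, chromosome V, 14193663 to 14197700, plus strand), the transcription factor of the mitochondrial response, had its strongest pooled promoter peak at rank 1718 with a signal of 89.5. Replicate 1 put it at rank 1476 (signal 58.6), but replicate 2 at rank 4709 (signal 25.2). The summits were 81, 83 and 102 bp upstream, within 21 bp of each other. atfs-1 was the only gene among hsp-110, hsp-6, ubl-5 and itself that ranked higher in replicate 1 than in replicate 2.

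The remaining regulator genes had only low pooled peaks. dve-1 (WBGene00022861, chromosome X, 427035 to 433812, minus strand), the homeobox protein of the response, had its strongest at rank 8827 with a signal of 36, in an intron 122 bp downstream of an internal start. Its strongest promoter peaks ranked 16590 in replicate 1 (signal 16.3, 252 bp downstream of a start) and 6205 in replicate 2 (signal 22, 91 bp downstream), and the summits of the 3 lists spanned 1964 bp. Both replicates had a peak overlapping the pooled one. In replicate 1 it was that same peak, with its summit 130 bp from the pooled summit. In replicate 2 it was a lower peak at 42 bp (rank 8068, signal 19.4). hsf-1 (WBGene00002004, chromosome I, 11953507 to 11963085, minus strand), the heat shock factor itself, ranked 14815 with a signal of 26.8, 196 bp upstream. In replicate 1 its peak ranked 13874 with a signal of 18.2, 192 bp upstream, and no replicate 2 peak overlapped the pooled one. The strongest promoter peak of hsf-1 in replicate 2 ranked 21225 with a signal of 11.2, at another place. A stronger pooled peak stood outside the window of hsf-1, 1979 bp upstream, at rank 4104 with a signal of 53.9. The −log10 q-value was 0.41 for hsf-1 and 0.833 for dve-1, against 2.79, the highest value in the pooled list, for the other genes of the set.

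The count of genes with a promoter peak depended on which replicate ranked the peaks. With the 1441 strongest peaks of replicate 2 alone, that is without replicate 1, 5 of 8 genes had a promoter peak, beside 3.49% of all genes. These were hsp-1, hsp-110, hsp-6, hsp-60 and ubl-5. With the 1441 strongest of replicate 1 alone, 2 of 8 had one, hsp-1 and hsp-60, beside 3.74% of all genes. The set was chosen from these peaks, so nothing is read from the gap to these shares. The IDR list on the older build ce10 is longer, with 2232 peaks down to a signal of 76.2. With as many pooled ce11 peaks, 6 of 8 genes had a promoter peak, all but hsf-1 and dve-1, beside 5.76% of all genes. The same 6 peaks were found in the ce10 IDR list itself, matched by chromosome, width and signal. Among them, the pooled summits of hsp-6 and hsp-60 lay nearer to the start of another gene.

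**Figure D2:**
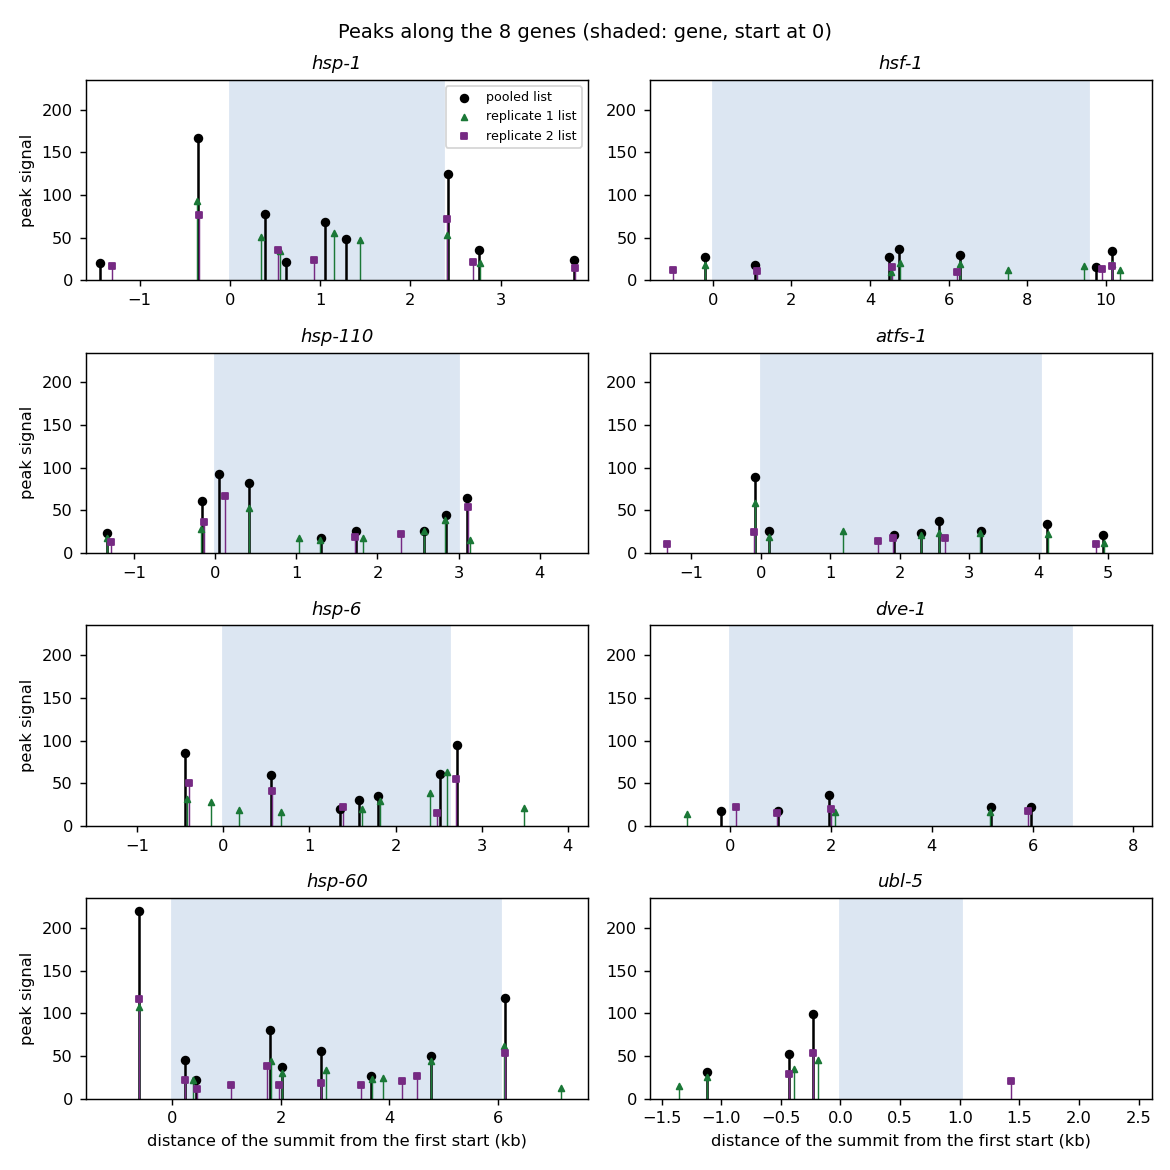
Signal of each peak (y axis, the authors' unit) by the distance of its summit from the first start in the direction of transcription (x axis, kb) for the 8 genes, with the gene shaded. Black circles are pooled peaks, green triangles replicate 1 and purple squares replicate 2; hsp-1, hsp-6 and hsp-60 show their 2 highest pooled peaks outside the shaded gene, upstream of the start and just past the 3′ end.

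The 4 chaperone genes also had pooled peaks just past their 3′ ends. Peaks were taken within 250 bp of the annotated end on either side, and those before the end lie in the gene body, which the choice of the set had used. IDR peaks lay past the end of hsp-1 and hsp-60, within that distance, which is 2 of 8 genes, beside 1.63% of all genes. Both also had an IDR promoter peak, a combination found in 2 of 8 genes and in 0.391% of all genes (78 of 19973). The set was chosen by its promoter peaks, so nothing is read from that share: of the 723 genes with an IDR promoter peak, 10.8% also had one at the 3′ end, and of the 3 in the set, 2 had. A pooled peak of any rank lay near the 3′ end of 6 of 8 genes, beside 22.8% of all genes. With the 1441 strongest peaks of replicate 2 alone, 4 of 8 genes had a 3′ peak, the 4 chaperone genes, and with those of replicate 1 alone 2 had, hsp-6 and hsp-60 but not hsp-1. The share of all genes in each replicate alone is not given, so nothing is read from these counts. No test was made, since the look at 3′ ends was chosen after these peaks had been seen.

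At hsp-1 the summit lay 50 bp past the end in the pooled list (rank 930, signal 124), 36 bp past it in replicate 1 (rank 1800, signal 52.8) and 40 bp past it in replicate 2 (rank 559, signal 71.3). The next gene, nra-1, runs toward hsp-1 and ends 124 bp away, so no annotated protein-coding start was near. At hsp-60 the summit lay 64 bp past the end in the pooled list (rank 1032, signal 118), 53 bp in replicate 1 (rank 1317, signal 62.1) and 74 bp in replicate 2 (rank 1030, signal 53.1). That summit was also 765 bp upstream of Y22D7AL.4, which RefSeq describes as a subunit of the general transcription factor TFIID, so 1 of 8 genes is left, hsp-1, when ends with another start in reach are set aside.

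hsp-6 had a higher signal near its 3′ end than at its start in each of the 3 lists. The 3′ summit lay 75 bp past the end in the pooled list, with a signal of 94.5 against 84.9 at the start. In replicate 1 the strongest peak near the end lay 38 bp before it, in the 3′ UTR, with a signal of 63.7 against 31.6, and in replicate 2 the summit lay 67 bp past the end with 54.6 against 50.3. The gap was thus large in replicate 1 and small in replicate 2. At hsp-110 the pooled 3′ summit lay 104 bp past the end (rank 3000, signal 64.4). In replicate 2 it lay 122 bp past the end and ranked 974, while the strongest replicate 1 peak there was 172 bp before the end, in the 3′ UTR, at rank 3207. The replicate 1 peak of hsp-110 past the end, at 148 bp, ranked only 18211. The summits at hsp-6 and hsp-110 were 626 and 199 bp upstream of the next gene on the same strand, adss-1 and ufbp-1. Of the regulator genes, atfs-1 had a pooled 3′ peak at rank 9936 and hsf-1 one at rank 29364, and dve-1 and ubl-5 had none.

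**Figure D3:**
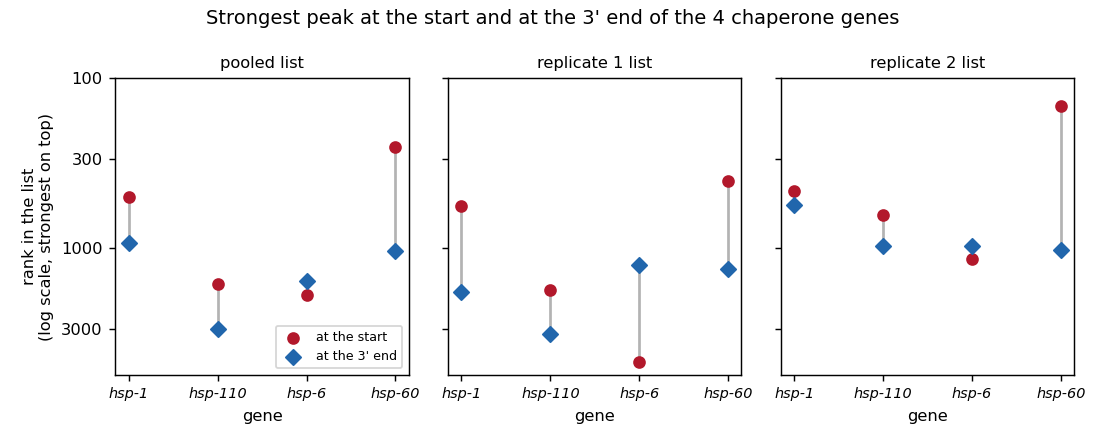
Rank (log scale, strongest on top) of the strongest peak at the start (red circles) and within 250 bp of the 3′ end (blue diamonds) of hsp-1, hsp-110, hsp-6 and hsp-60, in the pooled, replicate 1 and replicate 2 lists. The start ranks higher at hsp-1, hsp-110 and hsp-60 in all 3 lists, and the 3′ end ranks higher at hsp-6 in all 3. The replicate 1 diamonds of hsp-6 and hsp-110 are peaks inside the gene, 38 and 172 bp before its end.

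Within the genes themselves no IDR summit was found: 0 of 8 genes had one in the gene span, beside 2.65% of all genes. At that share this is no result about so few genes. Lower pooled peaks were spread along the chaperone genes. The strongest inside hsp-60 ranked 2028 (signal 81.1), in a coding exon 1802 bp from the first start, with a replicate 1 peak at 1809 bp (rank 2495) and a replicate 2 peak at 1752 bp (rank 1999). The strongest inside hsp-1 ranked 2178 (signal 77.3), 394 bp from the start, and replicate 1 had a peak at 350 bp (rank 1951), while the nearest of replicate 2 was at 528 bp (rank 2306). With as many pooled peaks as the ce10 IDR list has, 3 of 8 genes had a summit in the span, hsp-1, hsp-110 and hsp-60, beside 3.95% of all genes. At hsp-1 and hsp-110 these summits also lay in the promoter window, and those of hsp-110 include its strongest promoter peak. The summit inside hsp-60 lay outside the promoter windows of that gene. The strongest pooled peak inside hsp-6 ranked 3307, that inside hsf-1 ranked 8632 and that inside atfs-1 ranked 8072. ubl-5 had no pooled peak in its span.

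Motifs were searched on both strands in the 100 bp at each strongest pooled promoter summit: GAANNTTC and TTCNNGAA, the ways in which a pair of heat shock element units can be laid out, the bZIP site TGACGTCA and its shorter relative TGACTCA, the E-box letters CACGTG, the GA repeat GAGAGAG, the single nuclear receptor site AGGTCA, and the GATA-type site TGATAA. Matches were found at 3 of 8 genes. At hsp-1 a GAANNTTC match was centred 2 bp from the summit, with overlapping GAGAGAG matches 21 and 19 bp upstream of the summit. These motifs were in 3.8% and 7.38% of the 1422 windows at nuclear IDR summits, and in 6% and 3.21% of the 28559 windows at lower pooled summits. At ubl-5 a TTCNNGAA match was centred 1 bp upstream of the summit, a motif in 3.59% of IDR windows and 5.92% of the lower ones. At hsp-110, whose peak is outside the IDR list, a TGATAA match was centred 45 bp from the summit. That motif was in 10.8% of IDR windows and 9.7% of the lower ones. None of the 8 windows held AGGTCA (3.94% of IDR windows), TGACGTCA (0.633% of them), TGACTCA (1.13% of them) or the E-box letters (5.41% of them), which says only that these letters were not there. A match is a run of letters, and none of these was tested for binding.

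CCAAT, added after the sequences were seen and so a description only, was in the window of 6 of 8 genes, all but hsp-1 and dve-1. hsp-60 held it at 2 places. It was in 16.7% of IDR windows and 19.6% of lower pooled windows. The GC content of the window was 57% at hsp-60, 46% at hsp-1, 50% at hsp-6, 46% at hsp-110, 55% at atfs-1, 54% at dve-1, 46% at hsf-1 and 37% at ubl-5. The mean over IDR windows was 48.3% (SD 7.87) and over lower pooled windows 41.2% (SD 9.8). The windows of the set lay on both sides of the IDR mean, and all but that of ubl-5 lay above the lower pooled mean. Those of hsp-110, hsp-6, hsf-1, atfs-1 and dve-1 are themselves lower pooled windows. The part of GC content in the ranks was not tested.

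Heat shock elements of 3 units, a longer form that heat shock factors bind in other genes, were then searched in the stretch from 250 bp upstream to 50 bp downstream of each first start, also after the sequences were seen. They were in 1.97% of all such stretches and in those of hsp-1 and hsp-110, the cytosolic chaperones, and not in the other 6. They are shown because they mark where these promoters carry the element relative to the NHR-90-eGFP summit, with the units in capitals on the strand of the gene.
hsp-1, chrIV:17278815-17278827, plus strand: GAAttTTCtaGAA
hsp-110, chrIII:8447134-8447146, minus strand: TTCtcGAAtaTTC
hsp-110, chrIII:8447012-8447024, minus strand: GAAatTTCtaGAA

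The element of hsp-1 begins 144 bp upstream of the start, nearer to the gene than the pooled summit at 353 bp upstream. Those of hsp-110 begin 237 and 115 bp upstream, on either side of its lower pooled peak at 161 bp upstream, while its strongest pooled summit is 50 bp downstream of the start. No window of 100 bp at a strongest summit of the set held a 3-unit element. Its share was 0.492% of IDR windows and 0.487% of lower pooled windows. The strongest summits at the cytosolic chaperone genes were thus not at these elements, though the called spans of some peaks reached them. The strongest pooled peak of hsp-110 spanned 8446634 to 8447083, which takes in its element at 115 bp upstream but not the one at 237 bp. The replicate 2 peak of hsp-1 spanned 17278397 to 17278836, which takes in its element. The pooled and replicate 1 peaks of hsp-1 did not reach it. The covering peaks of hsp-110 and hsp-1 were 450 and 440 bp wide, which are the median widths of their lists. The pooled and replicate 1 peaks of hsp-1 were 226 and 119 bp wide. Whether an element is covered thus depends on peak width, and nothing is read from it about NHR-90 at the elements.

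The wider machinery was covered by a list of 53 cytosolic chaperone genes and regulators and a list of 24 mitochondrial ones, drawn up with earlier results in view and including the 8 genes. Of the cytosolic list 7 genes, or 13.2%, had an IDR promoter peak, and of the mitochondrial list 8 genes, or 33.3%, beside 3.62% of all genes. Without the 8 genes the counts were 6 of 50 and 6 of 19, and the last still includes Y22D7AL.10, whose peak is that of hsp-60. A pooled promoter peak of any rank was found for 42 cytosolic genes (79.2%) and 21 mitochondrial genes (87.5%), beside 42% of all genes. The median rank of the strongest pooled promoter peak was 7324 in the cytosolic list, 5064 in the mitochondrial list and 1674 in the set of 8. Over all genes the median gene had no pooled promoter peak.

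On the cytosolic side IDR peaks lay in the promoter windows of partners of HSP70 and of CCT chaperonin subunits, beside 3.62% of all genes. Of 6 HSP70 co-chaperone genes 3 had one. The strongest was that of unc-23, a BAG-domain exchange factor (rank 367, signal 192). The others were dnj-13, a J-domain protein (rank 730, signal 140.0), and bag-1, another BAG-domain factor (rank 744, signal 139). Of 10 genes of HSP90 and its co-chaperones none had one, which at a share of 3.62% over all genes is no result about them. The chaperonin subunit gene cct-8, whose product folds actin and tubulin, ranked 734 with a signal of 139.9, in a group where 2 of 8 genes had an IDR peak. With each summit given to its nearest start, neither cct-8 nor cct-7, the other of these, kept an IDR promoter peak. Of 14 small heat shock protein genes 1 had one, sip-1 (rank 1108, signal 114), and 7 had any pooled peak. These shares, 7.14% and 50%, are near those of all genes, 3.62% and 42%. The hsp-16.1 and hsp-16.48 genes, classic heat-induced genes present in near-identical copies whose reads may be split or lost, had none in the pooled list. The next genes below the IDR list after hsp-110 were sgt-1 (rank 1888, signal 84.7) and the inducible HSP70 genes F44E5.4 and F44E5.5, which have 1 peak between them (rank 2056, signal 80.2).

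On the mitochondrial side the strongest peak was that of cbp-1, a histone acetyltransferase gene used in the response, at pooled rank 79 with a signal of 326. It ranked 66 in replicate 1 and 99 in replicate 2, and its summit was 864 bp upstream. The peak of hsp-60 and Y22D7AL.10 came next, followed by the matrix protease gene clpp-1 (rank 1008, signal 119), the inner membrane protease gene ymel-1 (rank 1170, signal 110.4) and the histone demethylase gene jmjd-1.2 (rank 1209, signal 108). With each summit given to its nearest start, jmjd-1.2 and hsp-60 had no IDR promoter peak. In the main window, 1000 bp upstream to 500 bp downstream, 4 of 11 regulator genes of the mitochondrial response had an IDR peak, jmjd-1.2 among them. Of 7 protease and prohibitin genes 2 had one. Of the 4 regulators of the heat shock response, hsf-1 among them, none had one, beside 3.62% of all genes, which is no result about so few. The genes next below the IDR list were atfs-1, hsp-6 and ulp-4, the protease that removes SUMO from DVE-1 and ATFS-1 (rank 1913, signal 84.2), and then dnj-10, a mitochondrial J-domain protein, at rank 4807 with a signal of 49.7.

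**Figure D4:**
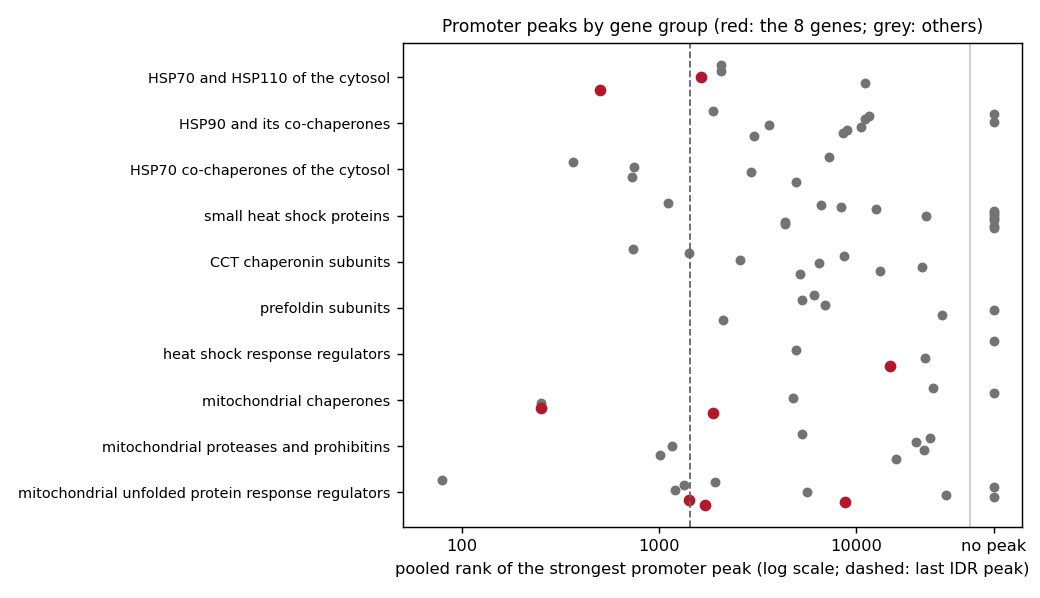
Pooled rank of the strongest promoter peak (x axis, log scale) of the listed genes, 1 point a gene, by group, with genes of the set of 8 in red, others in grey and genes with no pooled promoter peak at the right. The dashed line marks the last IDR peak, rank 1441; points to its left are genes with an IDR promoter peak, as are 3.62% of all protein-coding genes, and include 3 of the 8.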

How the data were processed

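Peak lists in narrowPeak form were deposited for 2 replicates, for both pooled, and after an IDR threshold, on ce11 and ce10. Aligner, peak caller, IDR threshold and read numbers are not given in the sources used, so depth is unknown. The deposited peak signal, the authors' own value, was used to rank peaks within a list and not to compare lists in size. The deposited −log10 q-value was 2.79 for 2783 pooled peaks and did not rank them. Titles in the deposited records call the pooled and replicate lists peaks and background as input for IDR.

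Summits were placed on Ensembl release 115 gene models of WBcel235, the assembly of ce11, with Python 3.11.15 and pandas 2.3.3, after a check on simulated peaks. All annotated transcript starts were used. No coordinate was converted: ce10 peaks were matched by chromosome, width and signal within 0.001%. Exact 95% intervals came from scipy 1.17.1 and figures from matplotlib 3.10.9. No p-value was computed, since there is 1 group and the genes were chosen from these peaks.

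The members and lists were chosen with earlier results of these data known. From annotation alone, the lists lost 1 pseudogene and 1 gene that RefSeq describes otherwise, took RefSeq's symbol for another, and counted hsp-16.1 and hsp-16.48 by 2 identifiers each. Named genes are the 8, the 6 strongest IDR genes of each list, the 4 strongest below the IDR list, and the 3 nearest hsp-60 in replicate signal. The analysis of 3′ ends, the CCAAT and 3-unit motifs, and the use of protein-coding transcript starts only were chosen after seeing the data.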

Additional observations from a re-analysis of the deposited data

How the results depend on the processing

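The count of 3 of 8 genes with an IDR promoter peak became 6 with as many pooled peaks as the ce10 IDR list, and 2 to 5 when each replicate was left out. It stayed at 2 or 3 under the other windows and thresholds. For the cytosolic list the count of 7 became 2 with the 720 strongest IDR peaks and 12 with the ce10 number, and 7 to 8 without each replicate. With the nearest start only it was 5, without cct-7 and cct-8. For the mitochondrial list the count of 8 became 4 with 500 bp upstream to the start and 3 with the 720 strongest, and 6 to 7 without each replicate. With the nearest start only it was 6, without hsp-60 and jmjd-1.2. The share of all genes, 3.62%, was 2.09% with 500 bp upstream, 5.46% with 2000 bp upstream to 1000 bp downstream, 1.69% with the 720 strongest and 5.76% with the ce10 number. It was 4.08% with any base in the window, 3% with the nearest start only and 2.88% without summits near small RNA genes, and 3.49 to 3.74% without each replicate. Gene-body summits went from 0 to 3 genes with the ce10 number, and to 1 gene in each replicate alone, but not the same gene. In replicate 2 it was hsp-110 (rank 633), at a summit that also lay in its promoter window. In replicate 1 it was hsp-6 (rank 1262), at the 3′ UTR summit that also counts for its 3′ end. No share of all genes is given beside these single-replicate counts. At the ce10 number, the summits in hsp-1 and hsp-110 also lay in the promoter window. The 2 genes with an IDR peak at the 3′ end became 0 with the 720 strongest, 1 without ends near another start, and 2 to 4 without each replicate, all chosen after seeing the data. No share of all genes is given beside these counts. The 2 genes without replicate 2 were hsp-6 and hsp-60, so hsp-1 was lost there (replicate 1 rank 1800). Motif matches rose from 4 pairs of gene and motif to 10 with 200 bp. No paired analysis was possible because there is 1 group only. The cause of these shifts was not tested. With read numbers unknown, a peak missing from a list cannot be read as absence of NHR-90.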
